A study of Mus musculus with 12 samples.

Results

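The replication-dependent histone genes were taken from the expression table by symbol, as every entry that begins with Hist, a cluster digit from 1 to 4, the letter h and the class, 1, 2a, 2b, 3 or 4. This found 66 of 21881 genes: 6 of linker histone H1, 18 of H2A, 18 of H2B, 12 of H3 and 12 of H4. By the digit in the symbol, 52 belonged to the Hist1 cluster, 10 to Hist2, 3 to Hist3 and 1 to Hist4, and 2 (Hist2h3c2-ps and Hist3h2bb-ps) carried a pseudogene symbol. The samples were mouse mesenchymal stem cells of the C57BL/6 strain, immortalized fibroblast-like cells of adult bone marrow grown from single cells. WT_siCtrl libraries came from Dicer f/f cells, which carry floxed Dicer alleles, and KO_siCtrl libraries from Dicer -/- cells, which lack the nuclease that releases mature microRNAs; both received a nontargeting control siRNA. KO_let-7g libraries came from Dicer -/- cells given a synthetic let-7g duplex, which supplies that microRNA without Dicer, and KO_siNr6a1 libraries from Dicer -/- cells given an siRNA against Nr6a1, the gene of a nuclear receptor that let-7 represses. Each reagent was used at 20 nM for 48 h, polyadenylated RNA was sequenced, and each group had 3 libraries, numbered 0, 1 and 2. No source used here gives the number of clonal lines behind each genotype, and genotype and line cannot be told apart.

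Core histones H2A, H2B, H3 and H4 form the protein spool of the nucleosome, and H1 binds the DNA that enters and leaves it. Replication-dependent histone genes are transcribed mainly in S phase, lie in clusters, and mostly have no introns. Their mRNAs end in a short stem-loop that the protein Slbp binds, in place of the poly(A) tail of other mRNAs, so a library of polyadenylated RNA records them only from transcripts that carry a tail or that pass the selection in another way. The levels below are therefore not the total histone mRNA of the cells. Copies within a class are near-identical: in the GENCODE M21 transcripts, a median of 73.0% of the 50-base words of an H2A gene, 54.1% for H3, 37.2% for H2B, 33.5% for H4 and 1.11% for H1 also occurred in another member. No source used here says how the aligner placed reads shared by copies. The level of a single copy is thus uncertain, and sums over a class are given first.

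The stem-loop that stands in for the tail is shown for 7 genes that the results below turn on, from the GENCODE M21 transcripts (build GRCm38), 5′ to 3′, with the 6-base arms and the loop between them in capitals.
Hist1h1c: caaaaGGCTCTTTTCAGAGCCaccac
Hist2h2aa1: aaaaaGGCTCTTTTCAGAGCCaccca
Hist1h2bk: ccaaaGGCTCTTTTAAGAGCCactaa
Hist2h3c1: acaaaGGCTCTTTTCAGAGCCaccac
Hist1h4b: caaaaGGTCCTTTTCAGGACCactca
Hist1h4i: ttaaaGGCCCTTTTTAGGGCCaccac
Hist4h4: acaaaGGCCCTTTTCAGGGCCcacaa
These lie at chr13:23739507-23739532 (+), chr3:96246027-96246052 (+), chr13:22036295-22036320 (+), chr3:96247322-96247347 (+), chr13:23757361-23757386 (+), chr13:22040961-22040986 (-) and chr6:136803993-136804018 (-) of GRCm38. The authors' build was mm9, and no coordinate was converted. GENCODE held a transcript for 65 of the 66 members, and a stem-loop was found in 42 of these genes. The searched form, GGCTCTTTT, any base, then AGAGCC, was present in 32 genes of classes H1, H2A, H2B and H3 and in 0 H4 genes. Instead, 10 H4 genes had a perfect 6-base hairpin with another arm, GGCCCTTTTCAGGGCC in 6, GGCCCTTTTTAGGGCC in 2 and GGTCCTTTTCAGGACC in 2; this second form was searched after the first gave none in H4. No match says only that these letters are not in the annotated transcript. Among the genes without a match was Hist1h2bc, whose annotated transcript has 2 exons. Some annotated transcripts of Hist1h2be, Hist1h2bp and Hist1h2bq also have 2 or more exons. In 21 of the 42 genes the annotated transcript runs more than 100 bases past the stem-loop, among them Hist1h1c, Hist2h3c1, Hist1h4i and Hist4h4, whereas it ends 35 bases past it in Hist2h2aa1, 30 in Hist1h2bk and 28 in Hist1h4b.

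Promoters are shown for a divergent H2A and H2B pair, since both genes share one stretch of DNA and the data below differ between them, and for Hist1h4i, the H4 gene with the highest level. The windows are RefSeq's (build GRCm38.p6), 250 bases before to 50 after the annotated start, 5′ to 3′ along the named gene; capitals mark, on either strand, CCAAT of the CCAAT box, the TATA box letters TATAAA, and the octamer ATTTGCAT.
Hist1h2bk: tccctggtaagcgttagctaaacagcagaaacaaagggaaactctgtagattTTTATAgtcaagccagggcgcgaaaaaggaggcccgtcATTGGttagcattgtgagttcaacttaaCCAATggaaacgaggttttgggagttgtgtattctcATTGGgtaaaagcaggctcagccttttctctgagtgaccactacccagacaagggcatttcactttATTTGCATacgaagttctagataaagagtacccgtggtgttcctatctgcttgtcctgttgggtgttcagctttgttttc
Hist1h4i: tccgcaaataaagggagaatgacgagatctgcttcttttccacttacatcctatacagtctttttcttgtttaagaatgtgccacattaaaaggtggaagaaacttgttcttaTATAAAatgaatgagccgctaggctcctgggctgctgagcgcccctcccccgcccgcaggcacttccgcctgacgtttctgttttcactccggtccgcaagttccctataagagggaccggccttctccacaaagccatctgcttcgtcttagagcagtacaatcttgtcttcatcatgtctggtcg
They lie at chr13:22035571-22035870 (+) and chr13:22041313-22041612 (-). The first window also holds the annotated start of Hist1h2ah, which is read in the other direction from 178 bases upstream. Of the 66 members, 65 matched 1 RefSeq gene and 58 had 1 promoter window. CCAAT was found in 50 of the 58 windows against 37.4% of 32817 mouse promoter windows of the same length: in 6 of 6 H1, 17 of 17 H2A, 14 of 14 H2B and 10 of 10 H3 windows but in 3 of 11 H4 windows. TATAAA was found in 34 of 58 against 13.6%, counted at any place in the window. In the printed windows it begins 137 bases before the annotated start of Hist1h4i. In Hist1h2bk it lies on the other strand, from 198 bases before the start. ATTTGCAT was found in 13 of 58 against 1.74%, in 7 H2A and 6 H2B windows and in none of the other classes. Both windows of a divergent pair hold much of the same DNA and are not independent, and a match is a description of the letters, not of a bound factor.

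Levels are FPKM (sequenced fragments relative to transcript length in kilobases and to the number mapped in that library), and means are given ± SD over the 3 libraries of a group. The members together took 0.0292% to 0.103% of the summed FPKM of a library. The highest class by summed FPKM was H2A in 10 of the 12 libraries and H4 in KO_let-7g library 0 and KO_siNr6a1 library 0. The highest single members by mean over the 12 libraries were Hist1h2ao (25.5), Hist1h4i (23.1), Hist2h2aa2 (15.3), Hist1h2bc (15) and Hist1h1c (14.8). In 3 or more libraries 59 members reached 1 FPKM, and these entered the tests among 11801 genes: 2 of 6 H1, 17 of 18 H2A, 16 of 18 H2B and all 12 H3 and 12 H4 genes. A member could pass through the group where it was high, so the counts below describe the 59 and not all 66. The 7 left out were Hist1h1a, Hist1h1d, Hist1h1e, Hist1h1t, Hist1h2aa, Hist3h2ba and Hist3h2bb-ps. Hist1h1t, the testis H1, did not exceed 0.0785 FPKM in any library. Just outside the limit stood Hist1h1a and Hist1h2aa, with 0.817 and 0.821 FPKM in the library that ranked 3 for each, and just inside it Hist1h1b and Hist1h3f with 1.05 and 1.2. Tests are limma's moderated test on log2(FPKM + 1), with p-values adjusted over all 11801 genes by the Benjamini-Hochberg method; a gene is called at an adjusted p under 0.05, and differences on this scale understate the change of genes near 1 FPKM.

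Of the target genes, Nr6a1 stood at 1.12 ± 0.158, 11.7 ± 1.32, 4.22 ± 1.04 and 3.68 ± 0.539 FPKM in the order WT_siCtrl, KO_siCtrl, KO_let-7g, KO_siNr6a1, and Dicer1 at 6.58 ± 1.45, 3.86 ± 0.214, 2.70 ± 0.290 and 3.15 ± 0.392; a gene-level value does not show whether the deleted exons were read. Of 11 markers of mesenchymal stem cells or fibroblasts 10 had a mean of at least 1 FPKM, the exception being Thy1 at 0.000451. The mean was under 1 FPKM for 5 of 6 blood, 4 of 4 endothelial and 5 of 5 epithelial markers, with Ptprc at 0.00313 and Cdh5 at 0.0207. The blood marker above it was Cd14, at a mean of 10.7 FPKM and 6.55 to 19.3 in single libraries. Read totals are not known; relative depth, set to 1 for KO_siCtrl library 0, ran up to 1.31 in KO_siCtrl, from 1.34 to 1.82 in KO_let-7g, from 1.11 to 1.29 in WT_siCtrl and from 1.13 to 1.56 in KO_siNr6a1. Nothing in the labels ties the libraries of a group to different cultures, and the p-values reflect a spread among libraries that may be technical. Fewer cells in S phase and less histone mRNA per cell cannot be told apart in such bulk RNA.

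The first comparison, KO_siCtrl against WT_siCtrl, asks what the loss of Dicer goes along with. H3, H4 and H2B genes stood higher in the Dicer -/- cells, whereas the summed H2A and H1 levels overlapped between the genotypes. Summed over the 12 H3 genes, the level was 14.9, 14.4 and 18.5 FPKM in the WT_siCtrl libraries numbered 0, 1 and 2 and 40.0, 57.2 and 49.6 in KO_siCtrl, a ratio of means of 3.07 with 2.68 to 3.96 between libraries of the same number. Summed H4 was 28.3, 42.4 and 37.1 in WT_siCtrl and 59.9, 111 and 80.4 in KO_siCtrl, a ratio of 2.33. In each of these 2 classes every KO_siCtrl library lay above every WT_siCtrl library. Summed H2B also separated the groups, at 32.9, 33.3 and 42.6 in WT_siCtrl and 77.7, 77.5 and 77.7 in KO_siCtrl, a ratio of 2.14. Summed H2A was 78.5, 142 and 229 in WT_siCtrl and 117, 172 and 202 in KO_siCtrl, and the groups overlapped (ratio 1.09). Summed H1, most of it Hist1h1c, was 13.8, 18.1 and 17.1 against 15.3, 19.3 and 14.7, also overlapping.

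**Figure D1:**
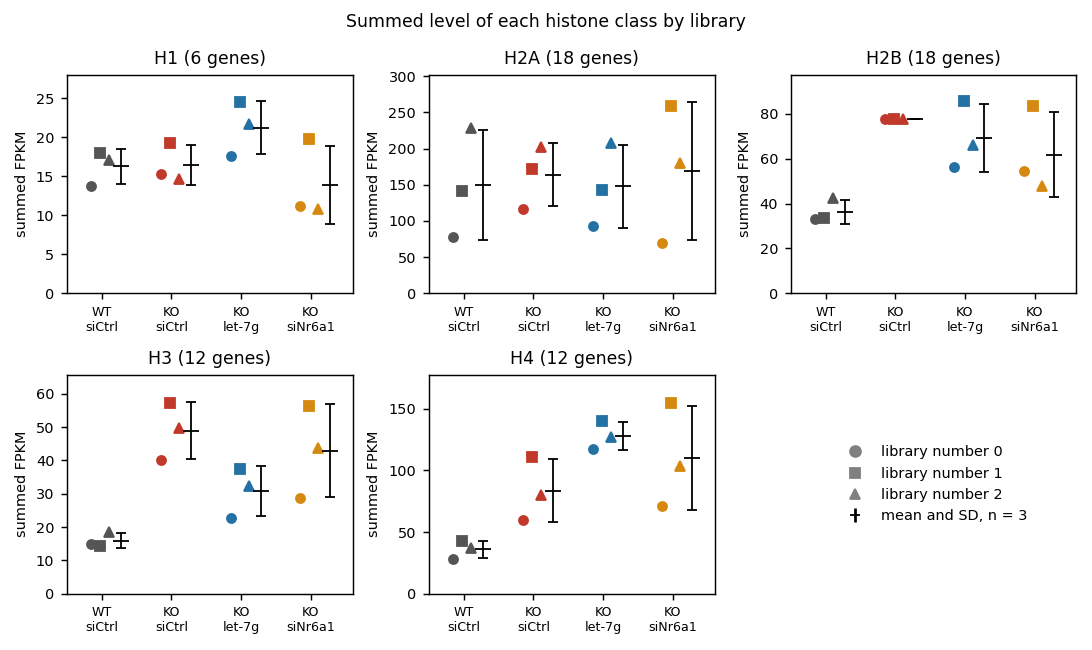
Summed FPKM of each histone class (vertical axis, linear from 0) in every library of the 4 groups, with the library number as the marker shape and the mean and SD of 3 libraries in black. H3, H4 and H2B separate KO_siCtrl from WT_siCtrl with no overlap, while the 3 libraries of a group spread over a wide range in H2A, from 69.3 to 259 FPKM in KO_siNr6a1.

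Gene by gene, 39 of the 59 tested members were higher in KO_siCtrl and 0 were lower, where 29.1% of all 11801 genes were called higher and 25.2% lower. The median log2 difference of the members was 0.78, and that of all genes 0.04. Called higher were 12 of 12 H3 genes (median 1.22), 11 of 12 H4 genes (0.96), 14 of 16 H2B genes (0.80), 2 of 17 H2A genes (0.09) and 0 of 2 H1 genes (-0.06). The copies share reads within a class, so these genes are not independent of each other. With the library number as a block, 44 were called higher and 0 lower, against 35.3% and 29.8% of all genes, with 12 of 12 H3, 12 of 12 H4 and 16 of 16 H2B genes among them. Without the libraries numbered 0 in all groups 35 were higher and 0 lower, against 23.3% and 22.9% of all genes: 11 of 12 H3, 11 of 12 H4, 11 of 16 H2B and 2 of 17 H2A genes were higher.

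Hist2h2aa1, an H2A gene of the Hist2 cluster, had the smallest adjusted p of the members. It stood at 3.31, 3.66 and 3.68 FPKM in WT_siCtrl and 14.4, 17.8 and 12.1 in KO_siCtrl (log2 difference 1.78, SE 0.26, adjusted p = 0.000173). All 3 KO_siCtrl libraries lay above all 3 WT_siCtrl libraries. Its neighbour copy Hist2h2aa2, with all of its 50-base words found in another member, against 89.2% for Hist2h2aa1, stood at 5.67, 15.3 and 19.6 against 11.8, 22.9 and 22.7 and was not called (adjusted p = 0.360, 0.0157 with the library number as a block). The 4 Hist2 H2A genes together stood at 12.1, 26.7 and 30.4 in WT_siCtrl and 34.0, 51.8 and 43.1 in KO_siCtrl, a sum that separated the groups. It depends less than a single copy on how reads were split between these 4. Some dependence remains, since FPKM is relative to length and their annotated transcripts run from 444 to 586 bases. The only other H2A gene called was Hist1h2ap, at 5.59, 4.14 and 5.28 against 8.71, 10.2 and 6.49 FPKM (log2 difference 0.65, SE 0.20, adjusted p = 0.0179). The call was lost without WT_siCtrl library 1, KO_siCtrl library 0 or KO_siCtrl library 1, with adjusted p up to 0.0731. Of the 50-base words of Hist1h2ap 93.1% occurred in another member, so its level is uncertain here and in the comparisons below.

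Among the H3 genes, which supply the histone whose tail carries many of the known chromatin marks, Hist2h3b stood at 0.772, 0.979 and 1.63 FPKM in WT_siCtrl and 4.24, 5.26 and 4.38 in KO_siCtrl (log2 difference 1.42, SE 0.24, adjusted p = 0.000417). Hist2h3c1 stood at 0.797, 1.42 and 2.12 against 5.19, 5.69 and 4.83 (log2 difference 1.38, SE 0.25, adjusted p = 0.000650). The groups did not overlap in either gene. Of the words of Hist2h3c1, 19.7% occurred in another member with a GENCODE transcript, against 79.7% for Hist2h3b. Hist2h3c2-ps, whose promoter window is near-identical to that of Hist2h3c1, had no such transcript. Words shared with it were not counted, so the level of Hist2h3c1 is uncertain too. Of the H3 genes with the highest mean, Hist1h3d stood at 4.68, 3.49 and 5.08 against 6.47, 9.69 and 9.76 (log2 difference 0.82, SE 0.21, adjusted p = 0.00601), and Hist1h3c at 1.63, 2.11 and 2 against 3.90, 7.36 and 6.02 (log2 difference 1.18, SE 0.26, adjusted p = 0.00289). The log2 differences of the 12 H3 genes ran from 0.60 (Hist1h3f, near 1 FPKM) to 1.42. The pseudogene symbol Hist2h3c2-ps was called too, at 0.556, 1.11 and 0.316 against 2.33, 1.30 and 2.19 (log2 difference 0.83, SE 0.25, adjusted p = 0.0140), but not without WT_siCtrl library 2 or KO_siCtrl library 0 (adjusted p up to 0.145).

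Hist4h4, the single member outside the 3 larger clusters, stood at 0, 0.0316 and 0.764 FPKM in WT_siCtrl and 2.45, 2.28 and 4.41 in KO_siCtrl (log2 difference 1.69, SE 0.26, adjusted p = 0.000262). None of its 50-base words occurred in another member with a GENCODE transcript (0%), and histone genes outside the members were not searched. Hist1h4b, an H4 gene of the Hist1 cluster, stood at 2.39, 3.09 and 2.80 against 5.15, 8.96 and 9.62 (log2 difference 1.21, SE 0.20, adjusted p = 0.000333). The H4 gene with the highest level, Hist1h4i, stood at 5.36, 11.3 and 7.59 against 11.4, 25.8 and 15.7 (log2 difference 1.01, SE 0.32, adjusted p = 0.0183), with groups that nearly met at 11.3 and 11.4; its call was lost without WT_siCtrl library 0 or KO_siCtrl library 1 and with library weights, with adjusted p up to 0.112. Hist1h4m stood at 4.30, 6.43 and 5.79 against 10.0, 14.2 and 10.5 (log2 difference 0.95, SE 0.29, adjusted p = 0.0161) and lost its call without the same libraries. Leaving out KO_siCtrl library 1 also ended the calls of Hist1h4d, Hist1h4f, Hist1h4h and Hist1h4k. So did leaving out WT_siCtrl library 0 for Hist1h4f and Hist1h4h, library 1 for Hist1h4d, Hist1h4f and Hist1h4k, and library 2 for Hist1h4f and Hist1h4k, or KO_siCtrl library 0 for Hist1h4h and library 2 for Hist1h4f; the highest adjusted p of these 4 genes under any alternative was 0.160. Hist2h4, the H4 gene of the Hist2 cluster, was not called (0.368, 1.17 and 0.441 against 1.89, 1.73 and 1.53 FPKM, adjusted p = 0.123, 0.0349 with the block).

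Of the H2B genes, Hist1h2bp had the smallest adjusted p, at 0.831, 0.907 and 1.24 FPKM in WT_siCtrl and 2.53, 2.62 and 2.44 in KO_siCtrl (log2 difference 0.83, SE 0.13, adjusted p = 0.000262). Hist1h2bc, the highest of the class, stood at 8.17, 9.34 and 11.1 against 18.9, 21.6 and 17.8 (log2 difference 0.96, SE 0.23, adjusted p = 0.00455; 0.0536 without the libraries numbered 0), and Hist1h2bj at 2.57, 3.42 and 3.51 against 6.90, 5.49 and 6.74 (log2 difference 0.83, SE 0.17, adjusted p = 0.00194). In these genes the WT_siCtrl libraries were all below the KO_siCtrl libraries. Not called were Hist2h2bb (adjusted p = 0.0523, 0.0233 with the block) and Hist1h2be (0.0734 and 0.0105). Hist3h2ba, left out of the tests for its low level, stood the other way, at 0.293, 0.309 and 0.259 FPKM in WT_siCtrl and 0.103, 0.153 and 0.0599 in KO_siCtrl, with no overlap; with no filter on level it was the 1 member called lower.

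H2A and H2B genes of the Hist1 cluster often start side by side on opposite strands. Among the 58 members with 1 RefSeq promoter window, 9 such pairs had starts at most 500 bases apart. Both genes were tested in 8 of them, with starts 164 to 249 bases apart. Members without 1 such window were not searched, so the set of pairs is not complete. In KO_siCtrl against WT_siCtrl the H2B gene was called higher in 8 of 8 pairs, with log2 differences from 0.64 to 1.07, and the H2A gene in 0 of 8, with differences from -0.36 to 0.09 and a lowest adjusted p of 0.750. Of their 50-base words, 43.2% to 93.5% in the H2A and 16.9% to 86.45% in the H2B genes occurred in another member. The 8 pairs are therefore not independent, and levels of single copies are uncertain. In the pair whose shared promoter is printed above, Hist1h2bk stood at 2.20, 1.93 and 2.73 FPKM in WT_siCtrl and 6.02, 5.03 and 6.62 in KO_siCtrl (log2 difference 1.07, SE 0.19, adjusted p = 0.000710). Its partner Hist1h2ah stood at 6.88, 11.8 and 21.1 against 7.95, 12.1 and 16.7 (log2 difference -0.04, SE 0.51, adjusted p = 0.959). The H2A libraries of both groups covered the same range, and the H2B libraries did not. The SE of the H2A gene was 1.45 to 6.04 times that of its H2B partner, lowest in Hist1h2ae with Hist1h2bg and highest in Hist1h2ao with Hist1h2bq, and a p that missed the threshold does not show that the H2A genes were unchanged. Taken within each pair and library, log2 H2B minus log2 H2A was higher in KO_siCtrl than in the WT_siCtrl library of the same number for all 3 numbers in 8 of 8 pairs, and the groups did not overlap in 4 of 8. These counts rest on the same values as the calls and are no further evidence. No share over other gene pairs was computed. In the other comparisons 0 genes of the 8 pairs were called.

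**Figure D2:**
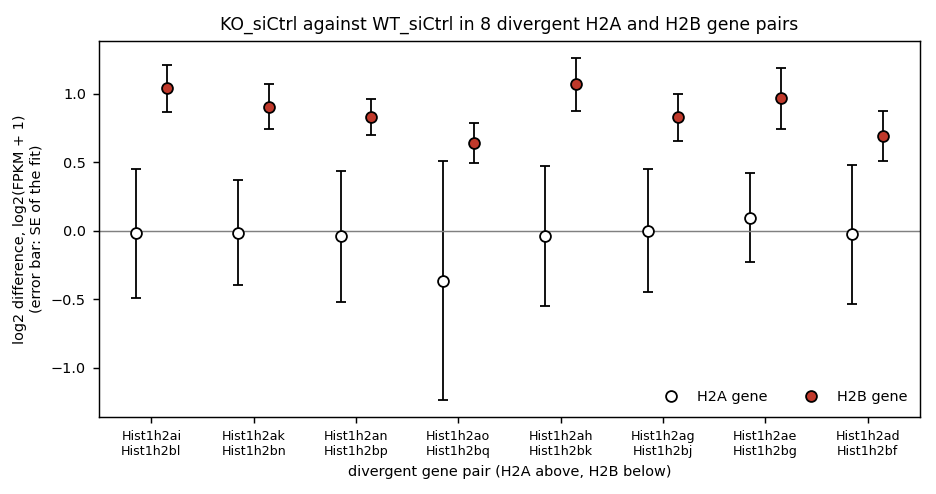
Log2 difference of KO_siCtrl against WT_siCtrl on the log2(FPKM + 1) scale (vertical axis) for 8 divergent pairs with both genes tested, H2A open and H2B filled, with bars of 1 SE of the limma fit. Only members with 1 promoter window were searched for pairs. The H2B genes lie between 0.64 and 1.07 and the H2A genes between -0.36 and 0.09, with wider bars.

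H2A genes followed the library number. In 60 of 68 combinations of a tested H2A gene and a group, the library numbered 0 was the lowest of the 3, and in 14 of 17 genes this held in all 4 groups. The corresponding counts of combinations were 38 of 48 for H4, 35 of 48 for H3, 30 of 64 for H2B and 5 of 8 for H1. Copies of a class share reads, so the combinations are not independent. The share over all genes was not computed. Hist1h2ao, the H2A gene with the highest mean, stood at 7.91, 21.8 and 46.3; 7.10, 15.4 and 32.9; 7.27, 23.6 and 39.0; and 6.82, 58.0 and 39.4 FPKM in the order WT_siCtrl, KO_siCtrl, KO_let-7g, KO_siNr6a1. Library 0 was the lowest in each group, and the groups covered the same range. What the number marks is not given in the labels.

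By cluster, the Hist2 genes separated the genotypes in sum, at 16.5, 33.1 and 36.6 FPKM in WT_siCtrl and 50.6, 71.0 and 59.4 in KO_siCtrl, a ratio of means of 2.10. The Hist1 sum, which holds the abundant H2A copies, stood at 148, 212 and 302 against 251, 357 and 356 and overlapped (1.45). The Hist3 sum separated the genotypes as well, at 3.83, 4.85 and 4.54 against 5.60, 6.41 and 5.12, a ratio of 1.30. Most of it is Hist3h2a, which at 3.51, 4.54 and 4.03 against 4.99, 5.94 and 4.77 was not called (adjusted p = 0.243, 0.0724 with the block). Hist2h2ac of the Hist2 cluster, at 2.09, 5.67 and 4.86 against 5.95, 8.20 and 5.96, also had groups that did not overlap and was called only with the block (adjusted p = 0.127 and 0.0155). Among tested genes 33 of 47 in Hist1, 5 of 10 in Hist2 (9 of 10 with the block), 0 of 1 in Hist3 and the 1 gene of Hist4 were called higher.

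RNAs that are made without a poly(A) tail were read beside the histones, as RNA that could have passed the selection without one. Whether their reads came from RNA without a tail was not tested. Rpph1, the RNA of ribonuclease P, stood at 3.77, 10.1 and 4.90 FPKM in WT_siCtrl and 41.4, 78.7 and 68.1 in KO_siCtrl (log2 difference 3.18, SE 0.40, adjusted p = 5.93e-05), and at 2.01, 4.29 and 2.57 in KO_let-7g and 5.58, 13.8 and 5.02 in KO_siNr6a1. KO_siCtrl libraries were the highest in this RNA, all above every library of the other 3 groups. Rmrp, the only other one of 7 such listed RNAs to be tested, stood at 1.80 ± 1.67, 3.01 ± 2.28, 1.43 ± 1.26 and 3.69 ± 2.57 FPKM and was called in none of the 4 comparisons. Summed over all such RNAs in the table, mostly small nucleolar RNAs, the level was 8720.1 ± 2716, 7871 ± 503, 8695 ± 171 and 7994 ± 1839.8 FPKM in the order WT_siCtrl, KO_siCtrl, KO_let-7g, KO_siNr6a1, and the groups overlapped except KO_siCtrl and KO_let-7g, at 8169.5, 8154 and 7291 against 8849, 8511 and 8725 FPKM. The part of tail selection in the histone levels was not tested.

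The second comparison, KO_let-7g against KO_siCtrl, asks what a returned let-7 microRNA changes in cells without Dicer; it shares the KO_siCtrl libraries with the comparisons before and after it. Called were 2 members higher, both H4 genes (Hist1h4i and Hist1h4m), and 4 lower (Hist4h4, Hist2h2aa1, Hist2h3b and Hist1h2ap), against 27.5% and 18.2% of all genes. As shares of the 59 tested members, both counts of this fit without the block lie below that background. The median log2 difference was -0.17 for the members and 0.08 for all genes. With the library number as a block 6 were higher and 14 lower (34.6% and 23.7% of all genes): 5 H4 genes and Hist1h1c were higher, and 8 of 12 H3 genes, 5 of 17 H2A genes and Hist4h4 were lower. The share of members called lower was then about that of all genes, and the share called higher was below it. With quantile scaling 2 were higher and 17 lower, against 22% and 22.2% of all genes, and the share of members called lower was then above the background.

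Hist1h4i stood at 11.4, 25.8 and 15.7 FPKM in KO_siCtrl and 34.5, 44.5 and 43.0 in KO_let-7g (log2 difference 1.22, SE 0.32, adjusted p = 0.00870), and Hist1h4m at 10.0, 14.2 and 10.5 against 23.2, 24.3 and 18.6 (log2 difference 0.88, SE 0.29, adjusted p = 0.0273). All KO_let-7g libraries of both genes lay above all KO_siCtrl libraries. The summed H4 level went from 59.9, 111 and 80.4 to 117, 139.7 and 127 FPKM, a ratio of 1.53 with no overlap. Hist4h4 stood the other way, at 2.45, 2.28 and 4.41 against 0.808, 0.547 and 1.03 (log2 difference -1.14, SE 0.26, adjusted p = 0.00466), again without overlap; with a pseudocount of 0.1 its adjusted p was 0.0502. The class thus held genes called in both directions. Hist1h4i kept its call under all 24 alternatives run, whereas Hist1h4m lost it without KO_siCtrl library 0 or 2 or KO_let-7g library 0 or 1 (adjusted p up to 0.0837).

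The summed H3 level was 40.0, 57.2 and 49.6 FPKM in KO_siCtrl and 22.6, 37.6 and 32.3 in KO_let-7g, a ratio of 0.630, and the groups did not overlap. Of its members Hist2h3b fell, from 4.24, 5.26 and 4.38 to 1.88, 3.31 and 2.24 (log2 difference -0.71, SE 0.24, adjusted p = 0.0298), and the other 11 were not called, at differences between -0.64 and -0.23. Hist1h3c, for one, stood at 3.90, 7.36 and 6.02 against 1.94, 4.09 and 4.04 (adjusted p = 0.0675, 0.00132 with the block). All 12 H3 differences were negative. By cluster, the Hist2 sum went from 50.6, 71.0 and 59.4 to 27.6, 47.8 and 43.1 FPKM and the Hist3 sum from 5.60, 6.41 and 5.12 to 3.26, 4.11 and 3.62, ratios of 0.655 and 0.642 without overlap, and the Hist1 sums overlapped. Hist2h2aa1 fell from 14.4, 17.8 and 12.1 to 6.09, 11.5 and 5.21 (log2 difference -0.93, SE 0.26, adjusted p = 0.0137) and Hist1h2ap from 8.71, 10.2 and 6.49 to 7.12, 4.09 and 4.76 (log2 difference -0.59, SE 0.20, adjusted p = 0.0327). In Hist1h2ap the groups overlapped. Leaving out single libraries ended each of these 3 calls: KO_siCtrl library 1 or KO_let-7g library 2 for any of them, KO_let-7g library 0 for Hist2h3b and Hist2h2aa1, KO_let-7g library 1 for Hist1h2ap, KO_siCtrl library 0 for Hist2h3b and Hist1h2ap, and KO_siCtrl library 2 for Hist2h3b (adjusted p up to 0.105, 0.129 and 0.123 for Hist2h3b, Hist2h2aa1 and Hist1h2ap). Without KO_siCtrl library 1 or KO_let-7g library 2 a single member stayed called lower, and without KO_siCtrl library 1 there were 5 called higher. Every KO_let-7g library was deeper than every KO_siCtrl library, and Rpph1 was lower in KO_let-7g (log2 difference -4.0, SE 0.40, adjusted p = 2.35e-05); their part in these differences was not tested.

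**Figure D3:**
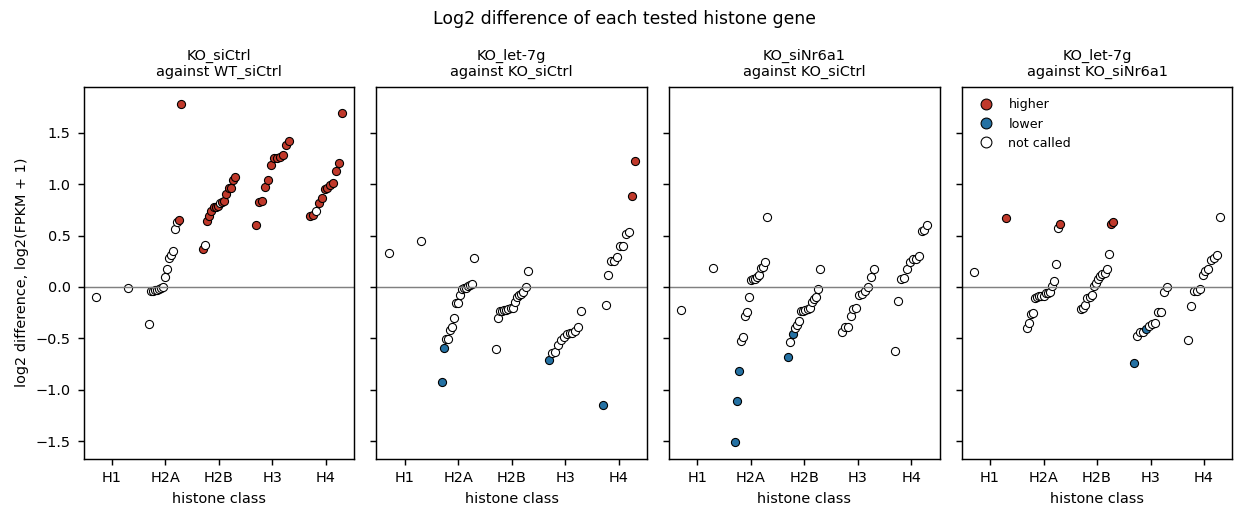
Log2 difference of every tested histone gene on the log2(FPKM + 1) scale (vertical axis) by class, in the 4 comparisons; filled points are called at an adjusted p under 0.05, red higher and blue lower. In KO_siCtrl against WT_siCtrl 39 of 59 points are filled, and in the other 3 comparisons 6, 5 and 6.

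A further comparison, KO_siNr6a1 against KO_siCtrl, asks what follows when Nr6a1 itself is lowered. By limma, 0 members were called higher (0 also at an unadjusted p under 0.05) and 5 lower (8 at the unadjusted p): Hist2h2aa1, Hist3h2a, Hist2h2be, Hist1h2ap and Hist1h2bc. The background was 13.2% of all genes higher and 16.3% lower, and the median difference was -0.10 for the members and -0.06 for all genes. With the block 3 H4 genes were higher (Hist1h4c, Hist1h4i and Hist1h4m) and 8 members lower, against 18.3% and 26.2% of all genes. Without the libraries numbered 0 the members called lower were 2, both of class H2A, and 0 were higher, against 8.26% and 8.86% of all genes. With library weights 2 were higher and 13 lower, against 20.1% and 26.8%.

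Hist2h2aa1 stood at 3.97, 6.60 and 3.41 FPKM in KO_siNr6a1, against 14.4, 17.8 and 12.1 in KO_siCtrl (log2 difference -1.50, SE 0.26, adjusted p = 0.00174). Hist3h2a, the H2A gene of the small Hist3 cluster, stood at 1.22, 3.30 and 1.50 against 4.99, 5.94 and 4.77 (log2 difference -1.11, SE 0.21, adjusted p = 0.00307), and none of its libraries overlapped. These 2 genes kept their calls under every alternative run. For Hist2h2aa1, however, 89.2% of its 50-base words occurred in another member. Its neighbour copy Hist2h2aa2 stood at 6.41, 19.4 and 16.5 against 11.8, 22.9 and 22.7, with overlap. The sum of the 4 Hist2 H2A genes also overlapped, at 13.7, 35.9 and 26.2 against 34.0, 51.8 and 43.1. Its same-number ratios were 0.404 to 0.693. Hist2h2be, an H2B gene with 0% of its 50-base words in another member, stood at 0.871, 0.911 and 0.693 against 1.62, 1.61 and 1.29 (log2 difference -0.46, SE 0.11, adjusted p = 0.00885; 0.0627 without the libraries numbered 0). Hist1h2ap stood at 4.14, 5.34 and 3.64 against 8.71, 10.2 and 6.49 (log2 difference -0.81, SE 0.20, adjusted p = 0.0117; 0.0661 without the libraries numbered 0). Hist1h2bc stood at 10.5, 18.0 and 8.35 against 18.9, 21.6 and 17.8 (log2 difference -0.68, SE 0.23, adjusted p = 0.0463), with overlapping libraries, and lost its call under 14 of 24 alternatives, among them each KO_siCtrl library left out and KO_siNr6a1 library 0 or 2 (adjusted p up to 0.203).

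The class sums of KO_siNr6a1 overlapped those of KO_siCtrl in all 5 classes, and KO_siNr6a1 library 1 was the highest of its group in each: H3 stood at 28.7, 56.4 and 43.7, H4 at 71.4, 155 and 103, H2B at 54.3, 83.2 and 47.7 and H2A at 69.3, 259 and 180.4 FPKM. Between libraries of the same number, however, the ratio of KO_siNr6a1 to KO_siCtrl lay above 1 for all 3 numbers in H4 (1.19 to 1.40) and below 1 in H3 (0.716 to 0.987), and on both sides of 1 in the other classes. Of the cluster sums, Hist1 overlapped, and Hist2 overlapped with same-number ratios of 0.457 to 0.772. Hist3 did not overlap and stood at 5.60, 6.41 and 5.12 in KO_siCtrl and 1.57, 3.39 and 1.51 in KO_siNr6a1. Hist4h4, the whole of Hist4, did not overlap either, at 2.45, 2.28 and 4.41 against 1.74, 2.15 and 0.939, but was not called (adjusted p = 0.10, 0.0749 with the block). Rpph1 was lower in KO_siNr6a1 as well (log2 difference -2.88, SE 0.40, adjusted p = 0.000473), and its part in these levels was not tested.

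The last comparison, KO_let-7g against KO_siNr6a1, tests the difference between the treatments. Called higher in KO_let-7g were 4 members, Hist2h2be, Hist1h1c, Hist3h2a and Hist1h2bc, and lower were 2 H3 genes, Hist1h3f and Hist1h3c, against 27.6% and 13.3% of all genes. With the block 6 were higher and 4 lower, against 36.9% and 17.8%. The medians were -0.05 for the members and 0.12 for all genes. Hist2h2be stood at 2.15, 1.66 and 1.57 FPKM in KO_let-7g and 0.871, 0.911 and 0.693 in KO_siNr6a1 (log2 difference 0.61, SE 0.11, adjusted p = 0.00120), with every KO_let-7g library above, and was called under all 23 alternatives run. Hist1h1c, the one H1 gene with a level above 2 FPKM, stood at 15.6, 22.0 and 19.3 against 9.56, 16.7 and 9.30 (log2 difference 0.67, SE 0.20, adjusted p = 0.0225); its libraries overlapped, and 7 of 24 alternatives lost the call, among them KO_let-7g library 1 or 2 or KO_siNr6a1 library 0 or 2 left out (adjusted p up to 0.0904). Hist3h2a stood at 2.89, 4.07 and 3.29 against 1.22, 3.30 and 1.50 (log2 difference 0.61, SE 0.21, adjusted p = 0.0410) and lost it under 14 of 23 (adjusted p up to 0.172). Hist1h2bc stood at 15.6, 23.1 and 17.9 against 10.5, 18.0 and 8.35 (log2 difference 0.63, SE 0.23, adjusted p = 0.0481) and lost it under 16 of 24 (up to 0.183).

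The H3 genes that were lower were Hist1h3f, at 0.596, 0.739 and 0.651 FPKM in KO_let-7g and 0.919, 1.54 and 1.2 in KO_siNr6a1 (log2 difference -0.41, SE 0.13, adjusted p = 0.0262), and Hist1h3c, at 1.94, 4.09 and 4.04 against 4.13, 7.55 and 6.99 (log2 difference -0.74, SE 0.26, adjusted p = 0.0439). Both separated the groups. Without KO_let-7g library 0, or without KO_siNr6a1 library 1 or 2, no member was called lower, and without KO_siNr6a1 library 0 there were 7. Leaving out KO_let-7g library 1 or 2, or KO_siNr6a1 library 0 or 2, left 1 member called higher, and leaving out KO_siNr6a1 library 1 gave 7. The count of this comparison thus turned on single libraries.

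**Figure D4:**
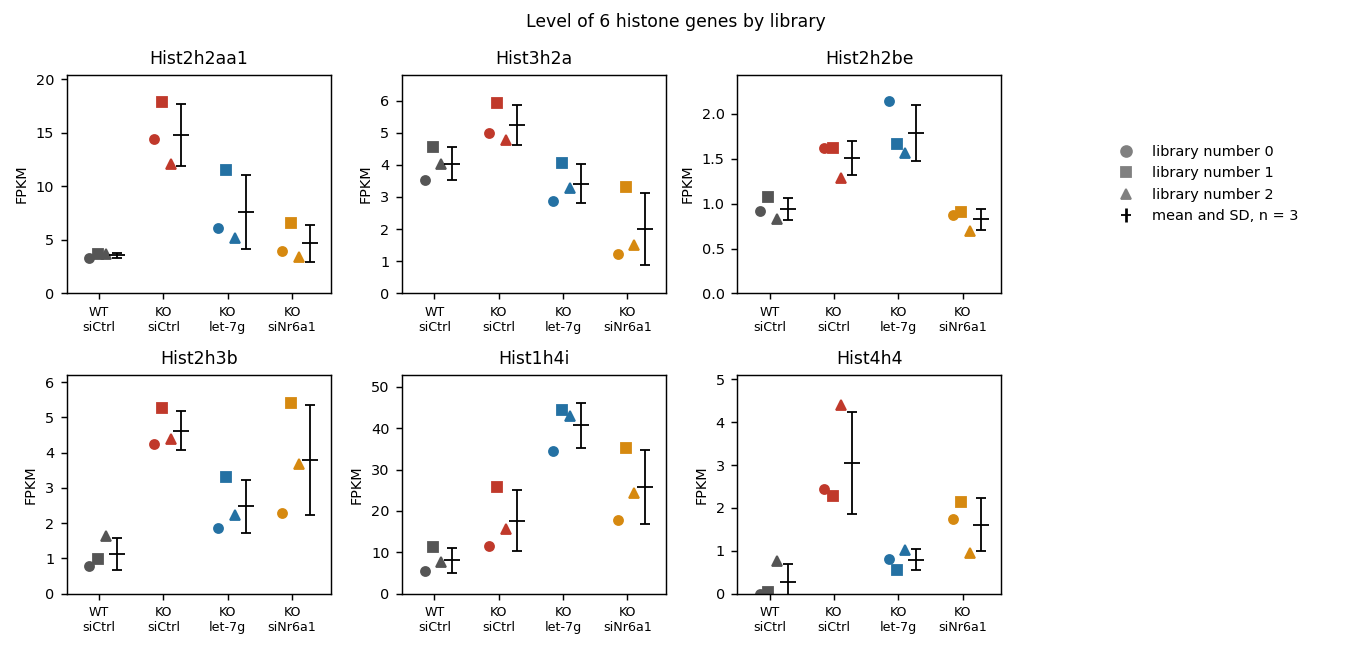
FPKM of 6 histone genes (vertical axes, linear from 0) in every library, with the library number as the marker shape and the mean and SD of 3 libraries in black, bars cut at 0. Hist2h2aa1 is highest in KO_siCtrl in all 3 libraries, Hist2h2be is lowest in WT_siCtrl and KO_siNr6a1, and Hist1h4i is highest in KO_let-7g except for KO_siNr6a1 library 1, at 35.3 FPKM.

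The genes that act on histone mRNA and protein were read from fixed lists, with the same background shares. Of 12 tested genes listed as replication-independent variants, most of which are transcribed through the cell cycle into polyadenylated mRNA, the calls were 1 higher and 4 lower in KO_siCtrl against WT_siCtrl, 3 higher and 1 lower in KO_let-7g against KO_siCtrl, 1 higher and 1 lower in KO_siNr6a1 against KO_siCtrl and 3 higher and 0 lower between the treatments (median log2 differences -0.15, 0.06, -0.00 and 0.10; with the block 3 and 3 in KO_let-7g against KO_siCtrl, 1 and 5 in KO_siNr6a1 against KO_siCtrl, 6 and 2 in KO_let-7g against KO_siNr6a1). H1fx, a linker histone variant, stood at 34.0, 62.4 and 86.6 FPKM in WT_siCtrl and 0.907, 1.49 and 1.14 in KO_siCtrl (log2 difference -4.74, SE 0.31, adjusted p = 3.41e-07). Cenpa, the centromeric H3 variant, fell from 99.8 ± 15.1 in WT_siCtrl to 45.6 ± 1.47 in KO_siCtrl (log2 difference -1.10, adjusted p = 1.16e-05) and was higher in KO_let-7g, at 83.6 ± 5.61 (0.86 against KO_siCtrl, adjusted p = 0.000122; 0.68 against KO_siNr6a1, 0.000835). H2afv, an H2A.Z variant, was higher in KO_let-7g than in KO_siCtrl (0.71, 0.00214) and than in KO_siNr6a1 (0.79, 0.00139). In KO_siNr6a1 against KO_siCtrl, H2afy2, a macroH2A, was higher (0.37, 0.0314) and H2afj lower (-0.75, 0.0439).

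Of 22 tested genes of histone mRNA transcription and 3′ processing, the calls were 5 higher and 8 lower in KO_siCtrl against WT_siCtrl, 5 higher and 3 lower in KO_let-7g against KO_siCtrl, 3 higher and 4 lower in KO_siNr6a1 against KO_siCtrl and 4 higher and 1 lower between the treatments (medians -0.10, 0.10, -0.04 and 0.11; with the block 7 and 5 in KO_let-7g against KO_siCtrl, 5 and 2 in KO_let-7g against KO_siNr6a1). Slbp, the stem-loop binding protein, stood at 119, 122 and 113; 98.2, 96.2 and 79.3; 149, 147 and 139.8; and 118, 119 and 112 FPKM in the order WT_siCtrl, KO_siCtrl, KO_let-7g, KO_siNr6a1. KO_siCtrl libraries were the lowest and KO_let-7g libraries the highest, with differences of -0.37 (adjusted p = 0.00284) in KO_siCtrl against WT_siCtrl and, against KO_siCtrl, 0.67 (8.72e-05) in KO_let-7g and 0.35 (0.00884) in KO_siNr6a1; the treatments differed by 0.32 (0.0111). Ccne1, the cyclin whose kinase activates the histone gene coactivator Npat, stood at 16.7, 19.4 and 18.8; 43.8, 51.4 and 50.5; 84.5, 85.9 and 93.3; and 30.3, 31.7 and 34.0 FPKM in the same order of groups. No 2 groups overlapped, and the differences were 1.36 (adjusted p = 3.11e-07), 0.84 (2.60e-05), -0.59 (0.000668) and 1.43 (4.33e-06) in the order of the comparisons.

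Npat stood at 15.3 ± 1.91 FPKM in WT_siCtrl and 10.8 ± 1.50 in KO_siCtrl (log2 difference -0.47, adjusted p = 0.00655), with 10.8 ± 0.968 in KO_let-7g and 9.15 ± 0.628 in KO_siNr6a1. Lsm11, of the U7 particle that cuts histone pre-mRNA, stood at 3.42 ± 0.0884, 4.34 ± 0.184, 3.35 ± 0.167 and 3.12 ± 0.0991, called higher in KO_siCtrl than in WT_siCtrl (0.27, 0.0104) and lower than KO_siCtrl in KO_let-7g (-0.30, 0.00821) and KO_siNr6a1 (-0.37, 0.00417). Casp8ap2, another histone locus body protein, was not called in any comparison, at 19.3 ± 3.24, 17.5 ± 2.84, 15.6 ± 2.29 and 14.4 ± 2.87; with the block its adjusted p in KO_siNr6a1 against KO_siCtrl was 0.0388. Sympk, the scaffold of the cleavage factor, was higher in KO_siCtrl than in WT_siCtrl (0.68, 2.22e-05), and Cdk2 higher in KO_let-7g than in KO_siNr6a1 (0.45, 0.000763).

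Of 11 tested genes of histone mRNA decay and translation, the calls were 1 higher and 1 lower in KO_siCtrl against WT_siCtrl, 4 higher and 3 lower in KO_let-7g against KO_siCtrl, 0 higher and 2 lower in KO_siNr6a1 against KO_siCtrl and 4 higher and 0 lower between the treatments (medians 0.07, 0.17, -0.11 and 0.22; with the block 2 and 3 in KO_siCtrl against WT_siCtrl, 1 and 3 in KO_siNr6a1 against KO_siCtrl, 7 and 1 in KO_let-7g against KO_siNr6a1). Lsm1, of the ring that binds oligouridylated histone mRNA, was higher in KO_siCtrl than in WT_siCtrl (0.94, adjusted p = 7.44e-05) and lower in KO_siNr6a1 than in KO_siCtrl (-0.72, 0.00151). Eri1, the exonuclease that trims the stem-loop end, was higher in KO_let-7g than in KO_siCtrl (0.52, 0.000828) and than in KO_siNr6a1 (0.58, 0.000571). Dis3l2, a nuclease of uridylated RNA, was lower in KO_siCtrl than in WT_siCtrl (-0.50, 0.000846) and higher in KO_let-7g than in KO_siCtrl (0.69, 0.000133). Mif4gd, a partner of Slbp in translation, was higher in KO_let-7g than in KO_siNr6a1 (0.98, 0.000528), and Upf1, a helicase of RNA decay, lower in KO_siNr6a1 than in KO_siCtrl (-0.43, 0.0215).

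Of 15 tested histone chaperones, the calls were 3 higher and 2 lower in KO_siCtrl against WT_siCtrl, 4 higher and 2 lower in KO_let-7g against KO_siCtrl, 1 higher and 1 lower in KO_siNr6a1 against KO_siCtrl and 4 higher and 0 lower between the treatments (medians 0.04, 0.03, -0.09 and 0.07; with the block 6 and 4 in KO_siCtrl against WT_siCtrl, 4 and 4 in KO_let-7g against KO_siCtrl, 2 and 4 in KO_siNr6a1 against KO_siCtrl, 6 and 3 in KO_let-7g against KO_siNr6a1). Nap1l1, a chaperone of H2A and H2B, stood at 195 ± 46.6, 91.9 ± 7.28, 171 ± 6.78 and 169 ± 25.3 FPKM in the order WT_siCtrl, KO_siCtrl, KO_let-7g, KO_siNr6a1, called lower in KO_siCtrl (-1.05, adjusted p = 0.000259) and higher than KO_siCtrl in both treatments (0.90, 0.00111, and 0.86, 0.00283). Hjurp, the chaperone of Cenpa, was higher in KO_let-7g than in KO_siCtrl (0.56, 9.93e-05) and than in KO_siNr6a1 (0.56, 0.000166), as was Asf1b, an H3 and H4 chaperone, against KO_siNr6a1 (0.47, 0.00279). Hira, which deposits H3.3, was higher in KO_siCtrl than in WT_siCtrl (0.42, 0.00208) and lower in KO_siNr6a1 than in KO_siCtrl (-0.28, 0.0350).

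Of 30 tested genes of S phase and DNA replication, the period in which these histone genes are transcribed, the calls were 7 higher and 4 lower in KO_siCtrl against WT_siCtrl, 11 higher and 3 lower in KO_let-7g against KO_siCtrl, 5 higher and 4 lower in KO_siNr6a1 against KO_siCtrl and 11 higher and 2 lower between the treatments (medians 0.09, 0.17, -0.02 and 0.21; with the block 17 and 2 in KO_let-7g against KO_siNr6a1). In KO_siCtrl against WT_siCtrl, the comparison in which 39 of 59 histone members were higher, the median of this list was 0.09 and that of all genes 0.04. Mcm3, of the replicative helicase, and Cdc6, which loads it, were higher in KO_siCtrl (0.44, adjusted p = 0.000207, and 0.58, 0.000863). Rrm1, of ribonucleotide reductase, was higher in KO_let-7g than in KO_siCtrl (0.85, 4.87e-05). Rpa2, which binds single-stranded DNA, and Tyms, thymidylate synthase, were lower in KO_siNr6a1 than in KO_siCtrl (-0.70, 0.000205, and -0.42, 0.00116), and Rpa2 was higher in KO_let-7g than in KO_siNr6a1 (0.86, 3.86e-05). The share of cells in S phase was not measured, and its part in the histone levels was not tested.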

How the data were processed

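Polyadenylated RNA was sequenced from 12 libraries, 3 in each of 4 groups taken from the sample titles. The authors deposited 1 table of FPKM values, 21881 genes by 12 columns, each column named for 1 library; 0 columns belonged to no sample. The submitters' processing notes name TopHat 1.2.0 and Cufflinks 1.0.3 with build mm9, but no source used here gives settings, the handling of reads with several matches or the use of strand. Overlapping genes on opposite strands cannot be told apart. FPKM is relative to the mapped fragments of a library, so a change in abundant genes moves the others. Read totals are not known; relative depth was recovered from the smallest values of genes with FPKM under 0.3.

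The 11801 genes that reached 1 FPKM in 3 or more libraries were put on the log2(FPKM + 1) scale and fitted in limma 3.58.1 under R 4.3.3: 1 coefficient per group over all 12 libraries, 8 residual degrees of freedom, variance trend, a moderated two-sided test and Benjamini-Hochberg adjustment over all genes, with calls at an adjusted p under 0.05. The script was tested on simulated data. Sums over classes and clusters are descriptions without a test. An exact permutation test of 3 against 3 libraries cannot give a p below 0.1 and was not used. Deviations from the group means went with the library number: between libraries of 1 number their correlations across all tested genes were 0.127 to 0.465 in 12 pairs, above the limit of 0.1, and 12 of 12 libraries correlated best with their own number. This pairing is read from the data, since no label gives it; over the histone genes alone the correlations ran from -0.22 to 0.77. A fit with the number as a block is given where it changed a call or moved a count by more than 1.5 times.

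The members, gene lists, tests and the rule for named genes were chosen with earlier results of these data known. Named were the 2 members of each class with the highest mean FPKM, the 4 called members with the smallest adjusted p in each comparison, any member called against the direction of most, up to 2 called genes of each other list per comparison, and Slbp, Npat, Lsm11, Casp8ap2, Dicer1 and Nr6a1; other genes were named after their values were seen. One gene that the rule names is not reported here. Stem-loops were read from GENCODE M21 transcripts and promoters from RefSeq, both of build GRCm38 and not the authors' mm9. Protein sequences were not used here. Alternatives were other pseudocounts, filters and scalings, library weights, fits within a comparison, and each library left out.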

Additional observations from a re-analysis of the deposited data

How the results depend on the processing

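In KO_siCtrl against WT_siCtrl the members called higher numbered 32 to 40 with 1 library left out and the members called lower 0; a mean FPKM of at least 5, which left fewer genes to test, gave 14 higher, and no filter gave 1 lower. The corresponding ranges were 1 to 5 higher and 1 to 6 lower in KO_let-7g against KO_siCtrl, 0 to 1 and 4 to 6 in KO_siNr6a1 against KO_siCtrl, and 1 to 7 and 0 to 7 in KO_let-7g against KO_siNr6a1. In KO_let-7g against KO_siCtrl, no filter gave 1 higher and 2 lower, a mean of at least 5 gave 2 lower, quantile scaling 17, and median of ratios scaling, library weights and the 6 libraries of the comparison alone 7 each. In KO_siNr6a1 against KO_siCtrl, library weights gave 2 higher and 13 lower, a mean of at least 5 gave 3 lower, and leaving out the libraries numbered 0, an alternative chosen after seeing the data, 2. In KO_let-7g against KO_siNr6a1, the members called higher were 2 with no filter, a mean of at least 5, quantile or upper quartile scaling, 1 with median of ratios scaling, the 6 libraries alone or without the libraries numbered 0, and 7 with library weights. The members called lower there were 1 with no filter or the 6 libraries alone, 0 at a mean of at least 5, 8 with quantile scaling and 9 with library weights. The replicate block, which pairs libraries of the same number, gave 6 higher and 14 lower, 3 and 8, and 6 and 4 in the last 3 comparisons, with all members called without it among them. Summed H2B in KO_siCtrl was 76.4 with upper quartile and 77.0 with median of ratios scaling. Apart from the changes of scale and sample above, the cause was not tested. Over 94 single-gene results, those called with or without the block and those whose missed threshold the report gives, 2072 of 2237 values kept direction and side of the threshold, 134 lost and 19 gained a call, and 12 turned, all of genes not called. In KO_siCtrl against WT_siCtrl these were Hist1h1b, at a log2 difference of 0.17 with quantile scaling, 0.012 with library weights and -0.24 to 0.12 with 1 library left out, Hist1h2ao and Hist1h2ah, at -0.99 to 0.21 and -0.40 to 0.34 with 1 library left out, and Casp8ap2, at 0.0085 with library weights; Casp8ap2 also turned in KO_let-7g against KO_siNr6a1, at -0.024 with median of ratios scaling. Of the other 25 named results, not called and with no value in the report, 42 of 593 values turned.

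Scaling moved the background: of all genes called, 60.2% were higher in KO_let-7g against KO_siCtrl and 49.9% with quantile scaling, and 67.6% in KO_let-7g against KO_siNr6a1, 51.9% with quantile and 48.5% with median of ratios scaling, which shifted the median of all genes there by -0.10 and -0.12. The median of the histone members stayed below 0 in both comparisons, at -0.36 and -0.22 with quantile and -0.23 and -0.15 with median of ratios scaling. Low FPKM of single copies and 3 libraries a group limit the precision.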
